A study of Homo sapiens with 12 samples.

Results

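MHC class II molecules present peptides from the endosomal pathway to CD4+ T cells, and B cells normally make them without further induction. CIITA is the coactivator that switches the class II genes on: it does not bind DNA itself but docks on a promoter-bound complex of RFX, CREB-family and NF-Y proteins. The alpha and beta chains of HLA-DR, HLA-DQ and HLA-DP form the presenting molecules, CD74 (the invariant chain) escorts them to the endosome, and HLA-DM exchanges the remaining CD74 fragment for peptide. The genes described here are CIITA, CD74, the 6 classical chains HLA-DRA, HLA-DRB1, HLA-DQA1, HLA-DQB1, HLA-DPA1 and HLA-DPB1, and the HLA-DM chains HLA-DMA and HLA-DMB. These 10 were chosen by name and matched by symbol to the 60483 Ensembl gene identifiers of the deposited count table, and each had a row there.

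The cells were REC1, an established human mantle cell lymphoma line, which is a B-cell tumour. They were exposed to ibrutinib plus SPX5551 (the combination), to ibrutinib, to SPX5551 or to DMSO, and RNA was sequenced after 4, 8 and 12 h from 1 library per treatment and time, 12 libraries in all. Ibrutinib is a covalent inhibitor of BTK, a kinase of B-cell receptor signalling, and SPX5551 (pol5551 in the column headers) is presented by the study as an inhibitor of the chemokine receptor CXCR4. The labels used here state no doses, and every sample is of the same cell line. Within a treatment the 3 times were taken as replicates, and within a time the 4 treatments were. A p-value here thus reflects no more than how these samples spread, and no label says that the libraries came from separate cultures. Time cannot be told apart from anything else that the libraries of a time shared.

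Libraries held 19336303 to 28934030 counts. Values are given as CPM, a gene's count scaled to a fixed library total, and 3 counts in a library correspond to 0.104 to 0.155 CPM, which covers counting error only. All 7 B-cell markers were present, with a summed level of 2472 to 3602 CPM. Of 3 mantle cell lymphoma markers, CCND1 and SOX11 were present, while CD5 had a median under 1 CPM, with treatment means of 0.257 (combination), 0.236 (ibrutinib), 0.276 (SPX5551) and 0.469 CPM (DMSO). Of 11 myeloid and dendritic markers, 6 were at 0 counts in every library and 10 had a median under 1 CPM, the exception being CD1C, which B cells can also carry. Of 8 T-cell markers, 6 had a median under 1 CPM, and the 8 stromal and epithelial markers summed to 44.7 to 97.4 CPM. Libraries also differed along a trend with transcript length, with Spearman's rho across genes between -0.401 in the 8 h SPX5551 library and 0.424 in the 8 h ibrutinib library. A pair of libraries, ibrutinib at 8 h and SPX5551 at 12 h (rho -0.378), was set aside in one alternative fit. The pair does not hold both extremes of rho: the 8 h SPX5551 library stayed in that fit, as did 12 h DMSO (rho 0.374). No other pair was set aside, so results of that fit depend on this choice. The labels contradict each other: each sample description names the column of another treatment than its title does. The values here follow the treatment and time in the column headers, so every difference between treatments depends on that choice, while differences between times do not. A fit with the columns that the descriptions name uses the same libraries with the treatments exchanged. It is therefore no independent check.

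The 10 genes stood at 4 levels, in the same order in each library. CD74 was abundant, CIITA was moderate, HLA-DMA and HLA-DMB were near 1 CPM, and the 6 classical chains were at or near 0. Only CIITA, CD74, HLA-DMA and HLA-DMB had enough counts to be tested, and the same 4 are listed in the authors' deposited log2 CPM table. The other 6 are described by their counts alone.

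**Figure D1:**
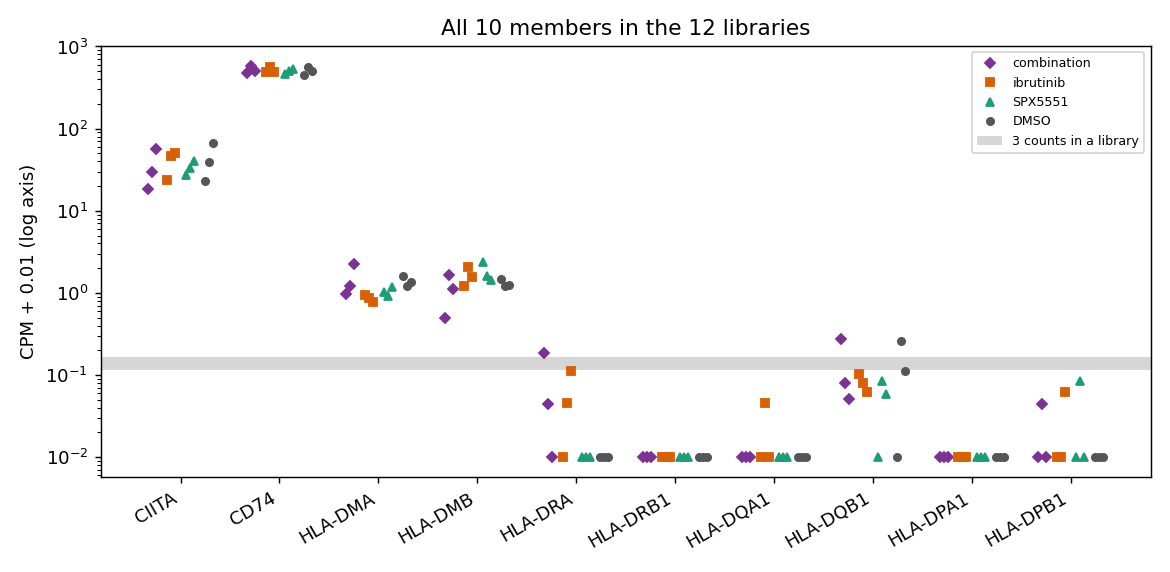
CPM + 0.01 on a log axis for the 10 genes in each of the 12 libraries, 1 point per library, with colour and shape for the treatment and, within a treatment, 4, 8 and 12 h from left to right. The grey band marks 3 counts in a library (0.104 to 0.155 CPM, plus 0.01). CD74 lies at 453 CPM or more in each library, while HLA-DRB1 and HLA-DPA1 lie at 0.

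The chains that make up the presenting molecules were almost absent from these libraries. HLA-DRA (chromosome 6, 32439842 to 32445046, plus strand, hg38), the alpha chain shared by all HLA-DR molecules, had 4, 1 and 0 counts in combination cells at 4, 8 and 12 h, 0, 1 and 2 in ibrutinib cells, and 0 in each library of SPX5551 and DMSO cells. HLA-DRB1 (32578769 to 32589848, minus strand), the main HLA-DR beta chain, had 0 counts in all 12 libraries, which over 271626500 counts allows up to 0.0110 CPM. All HLA-DRA values other than that of the 4 h combination library were at or under 3 counts. For HLA-DRA no difference between treatments was detectable at this depth.

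HLA-DQA1 (32628179 to 32647062, plus strand), the HLA-DQ alpha chain, had 1 count, in the 8 h ibrutinib library, and 0 in the other 11. HLA-DQB1 (32659467 to 32668383, minus strand), its beta chain, had 6, 2 and 1 counts in combination cells at 4, 8 and 12 h, 2, 2 and 1 in ibrutinib cells, 0, 2 and 1 in SPX5551 cells, and 0, 5 and 2 in DMSO cells. It was thus the classical chain with the most counts, 24 in all, and its values overlapped between the treatments. An antisense gene, HLA-DQB1-AS1, covers 9.53% of the HLA-DQB1 gene, and whether counting used strand is not given.

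HLA-DPA1 (33064569 to 33080775, minus strand), the HLA-DP alpha chain, had 0 counts in all 12 libraries. HLA-DPB1 (33075926 to 33087201, plus strand), its beta chain, had 4 counts in 3 libraries, none of them DMSO. These genes overlap each other on opposite strands, over 29.9% of HLA-DPA1 and 43% of HLA-DPB1, and how shared reads were counted is not given. Together the 6 chains held 37 of 271626500 counts: 15 of 76318679 in combination cells, 10 of 69006198 in ibrutinib cells, 5 of 66729020 in SPX5551 cells and 7 of 59572603 in DMSO cells. The further class II genes, of which those named here were chosen after their values were seen, were likewise low. HLA-DRB5, a second HLA-DR beta chain closely related to HLA-DRB1, and HLA-DQA2 had 0 counts, HLA-DQB2 had 5 in all, and HLA-DOA, the alpha chain of the HLA-DM modulator HLA-DO, had 65.

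Most, but not all, other genes between and beside the class II chains were higher. From HLA-DRA to DAXX on chromosome 6, the annotation lists 34 protein-coding genes, 13 of them class II chains. The 13 had a median level of 0 CPM across genes, and the highest was HLA-DOB at 3.05 CPM. The other 21 had a median of 41.0 CPM, and 15 of them exceeded 10 CPM. The genes of this stretch named next were chosen after their values were seen. ENSG00000250264 and ENSG00000248993 had 0 counts, and COL11A2, beside HLA-DPB1, and B3GALT4 had medians of 2.18 and 0.907 CPM, within the range of the class II chains. TAP1 and TAP2, the peptide transporter of the class I pathway, which lie between HLA-DOB and HLA-DMB, had medians of 32.3 and 25.0 CPM. BRD2, a chromatin reader next to HLA-DMA, had 402 CPM, and RPS18, a ribosomal protein gene, had 2698 CPM. Class II sequences vary between people, and the loss of reads that differ from the reference was not tested.

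**Figure D2:**
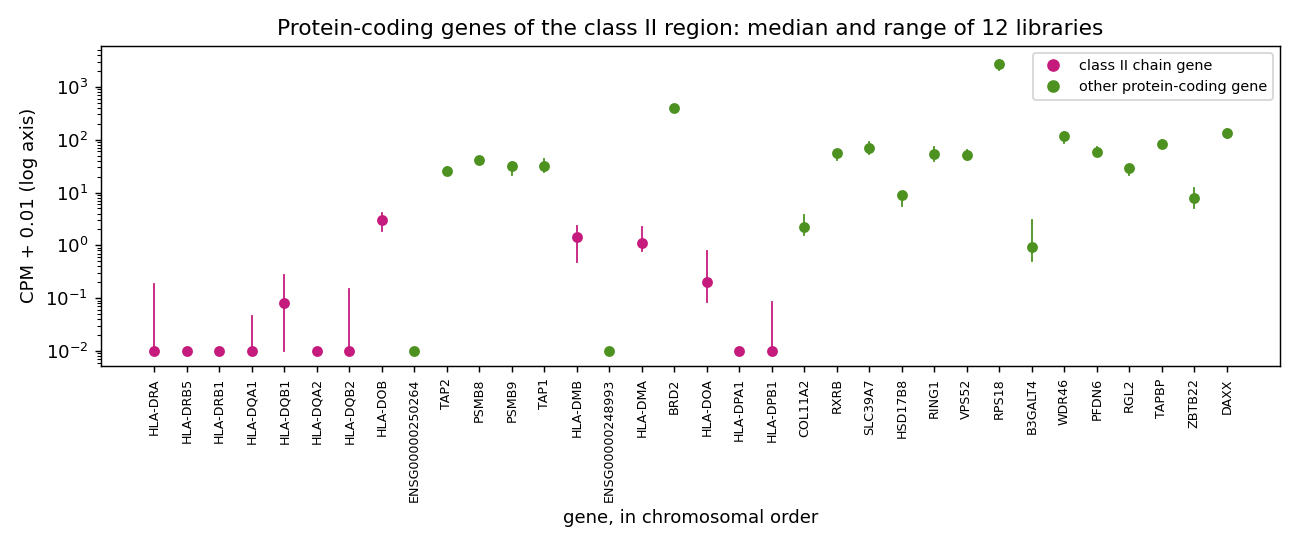
CPM + 0.01 on a log axis for the 34 protein-coding genes from HLA-DRA to DAXX in chromosomal order, as the median (point) and range (line) of the 12 libraries. The 13 class II chain genes lie at or below 3.05 CPM in the median, and BRD2, beside HLA-DMA, lies at 402 CPM.

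The promoters on which CIITA acts are shown for 5 of the 10 genes. Upstream of class II genes lie an X box, bound by RFX and CREB-family proteins, and a Y box, bound by NF-Y. RefSeq (GRCh38.p14) promoters of 250 bases before to 50 after the start were matched for 8 of the 10 genes, and HLA-DRA and CIITA had no entry. An X box pattern with open positions and the letters ATTGG for the Y box were searched on both strands, and the X box pattern was chosen after these sequences had been seen. The 2 motifs do not overlap in the stretches shown. In the lines below, capitals mark the matches, each stretch reads 5′ to 3′ on the gene's strand, and all 5 genes lie on the minus strand.
HLA-DRB1, chr6:32589885-32589935: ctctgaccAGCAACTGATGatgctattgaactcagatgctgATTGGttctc
HLA-DQB1, chr6:32666712-32666786: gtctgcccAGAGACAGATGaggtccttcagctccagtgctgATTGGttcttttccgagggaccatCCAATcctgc
HLA-DMA, chr6:32953137-32953218: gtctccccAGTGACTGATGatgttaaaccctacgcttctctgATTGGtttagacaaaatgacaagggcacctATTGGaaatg
HLA-DMB, chr6:32941041-32941124: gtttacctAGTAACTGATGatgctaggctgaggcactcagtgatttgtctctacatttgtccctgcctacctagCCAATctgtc
CD74, chr5:150412929-150412993: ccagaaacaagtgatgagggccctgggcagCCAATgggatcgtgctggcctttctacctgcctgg

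The X box pattern was found in 4 of the 8 matched genes, HLA-DRB1, HLA-DQB1, HLA-DMA and HLA-DMB, and in 0.817% of all 35116 promoters. As the pattern was chosen with these sequences in view, these shares are no test of enrichment. The Y box letters were found in 7 of the 8, all but HLA-DPA1, and in 34.6% of all promoters. The distance from the X box match to the next Y box match was 22 bases in HLA-DRB1 and HLA-DQB1, 23 in HLA-DMA and 55 in HLA-DMB. Whether the distant match in HLA-DMB is a working Y box was not tested. Among the 4 genes with both matches, HLA-DRB1 had 0 counts, HLA-DQB1 24, HLA-DMA 320 and HLA-DMB 395 over the 12 libraries. All 4 were thus low, with medians of 1.44 CPM or less. CD74, with a Y box match and no match to the X box pattern in this window, had 138761 counts. The pattern has fixed spacing, so a missing match does not show that CD74 lacks an X box.

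HLA-DMA and HLA-DMB were detected in each library at low levels and did not pass the test in any comparison as fitted here. HLA-DMB passed in 1 alternative, the combination versus SPX5551 with no filter on low counts, at -0.80 on the log2 scale (adjusted p = 0.0409, against 0.146 with the filter, edgeR). HLA-DMA (chromosome 6, 32948613 to 32969094, minus strand) had 0.959, 1.21 and 2.21 CPM in combination cells at 4, 8 and 12 h, 0.928, 0.853 and 0.776 CPM in ibrutinib cells, 1.01, 0.902 and 1.19 CPM in SPX5551 cells, and 1.61, 1.19 and 1.33 CPM in DMSO cells. Each ibrutinib value was below the DMSO value of the same time, while the combination was below DMSO at 4 h and above it at 12 h. The log2 fold change was -0.03 ± 0.29 for the combination versus DMSO and -0.71 ± 0.31 for ibrutinib versus DMSO (SE, n = 3 times; adjusted p = 0.971 and 0.452, edgeR's quasi-likelihood test).

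HLA-DMB (32934629 to 32941070, minus strand) had 0.479, 1.62 and 1.11 CPM in combination cells at 4, 8 and 12 h, 1.21, 2.06 and 1.55 CPM in ibrutinib cells, 2.36, 1.62 and 1.43 CPM in SPX5551 cells, and 1.46, 1.19 and 1.23 CPM in DMSO cells. The lowest and the highest of the 12 values both came from 4 h, in the combination and the SPX5551 library. On the log2 scale the interaction, combination minus ibrutinib minus SPX5551 plus DMSO, was 1.12 ± 0.43 for HLA-DMA and -1.07 ± 0.48 for HLA-DMB, of opposite sign in the 2 chains of 1 heterodimer. Neither passed (unadjusted p = 0.0193 and 0.0414, adjusted p = 0.775 and 0.842, edgeR; 0% of the 14412 genes tested were called, 845 had an unadjusted p under 0.05, DESeq2 called 2 and limma 0). Both signs held in the 24 alternatives, but the sizes moved, from 0.24 to 1.38 for HLA-DMA and from -1.51 to -0.17 for HLA-DMB. The smallest of both came with the columns that the descriptions name. With treatments exchanged, that term contrasts SPX5551-exposed with unexposed libraries by header, so its sign is no check of the interaction. With libraries left out, HLA-DMA ranged from 0.77 to 1.38 and HLA-DMB from -1.51 to -0.68. HLA-DMB was -0.68 without the 4 h SPX5551 library and -0.70 without the 4 h combination library. These values rest on 15 to 54 counts for HLA-DMA and 11 to 58 counts for HLA-DMB per library. A gene annotated across both, ENSG00000248993, covers 57.5% of HLA-DMB and 22.0% of HLA-DMA on the same strand and had 0 counts, and how shared reads were counted is not given.

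HLA-DOB, the beta chain of HLA-DO, which restrains HLA-DM in B cells, was the one gene of the 10 further class II loci with enough counts to test. It had 3.14, 2.87 and 3.15 CPM in combination cells at 4, 8 and 12 h, 2.32, 2.42 and 1.86 CPM in ibrutinib cells, 3.22, 3.31 and 4.00 CPM in SPX5551 cells, and 2.96, 2.13 and 3.18 CPM in DMSO cells. It passed in 0 of the comparisons.

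CD74 (chromosome 5, 150401637 to 150412929, minus strand) lay between 453 and 586 CPM whatever the treatment. It had 471, 586 and 497 CPM in combination cells at 4, 8 and 12 h, 486, 557 and 483 CPM in ibrutinib cells, 462, 498 and 529 CPM in SPX5551 cells, and 453, 566 and 501 CPM in DMSO cells. Treatment means were 518 ± 60.3 CPM for the combination, 509 ± 41.8 CPM for ibrutinib, 496 ± 33.4 CPM for SPX5551 and 507 ± 56.3 CPM for DMSO (SD, n = 3 times), and the ranges overlapped. The log2 fold change for the combination versus DMSO was -0.05, with a 95% interval from -0.24 to 0.14 (adjusted p = 0.796, edgeR). For ibrutinib-exposed versus unexposed libraries it was -0.02, with an interval from -0.15 to 0.12 (n = 6 libraries each; adjusted p = 0.873, edgeR). The sign of both changed under some settings, with values that stayed small.

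Over time, CD74 was highest at 8 h in combination, ibrutinib and DMSO cells and at 12 h in SPX5551 cells. The log2 fold change at 8 h versus 4 h was 0.20 ± 0.08 (SE, n = 4 libraries each; adjusted p = 0.0649, edgeR), which missed the threshold and passed in 7 of 22 alternatives. On a length scale, the median of CD74 was 470 CPM per kb of its median transcript length, against 9.61 CPM per kb for CIITA. With the shortest and the longest annotated transcripts, the CD74 value was 852 and 343, and the CIITA value 15.4 and 2.24.

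CIITA (chromosome 16, 10866222 to 10943021, plus strand) was the one of the 4 tested members that passed, and it did so between times. It had 18.4, 30.03 and 56.5 CPM in combination cells at 4, 8 and 12 h, 23.4, 46.5 and 51.1 CPM in ibrutinib cells, 27.0, 33.2 and 40.1 CPM in SPX5551 cells, and 23.3, 38.9 and 66.1 CPM in DMSO cells. In each of the 4 treatments the level was higher at 8 h than at 4 h and higher at 12 h than at 8 h. The ratio of 12 h to 4 h was 3.07 in combination cells, 2.18 in ibrutinib cells, 1.49 in SPX5551 cells and 2.83 in DMSO cells. Averaged over the treatments, the 3 times stood at 23.0 ± 3.52, 37.1 ± 7.23 and 53.4 ± 10.8 CPM (SD, n = 4 libraries each). The 4 h values did not overlap the later ones, while the 8 h and 12 h ranges overlapped, at 30.03 to 46.5 and 40.1 to 66.1 CPM.

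**Figure D3:**
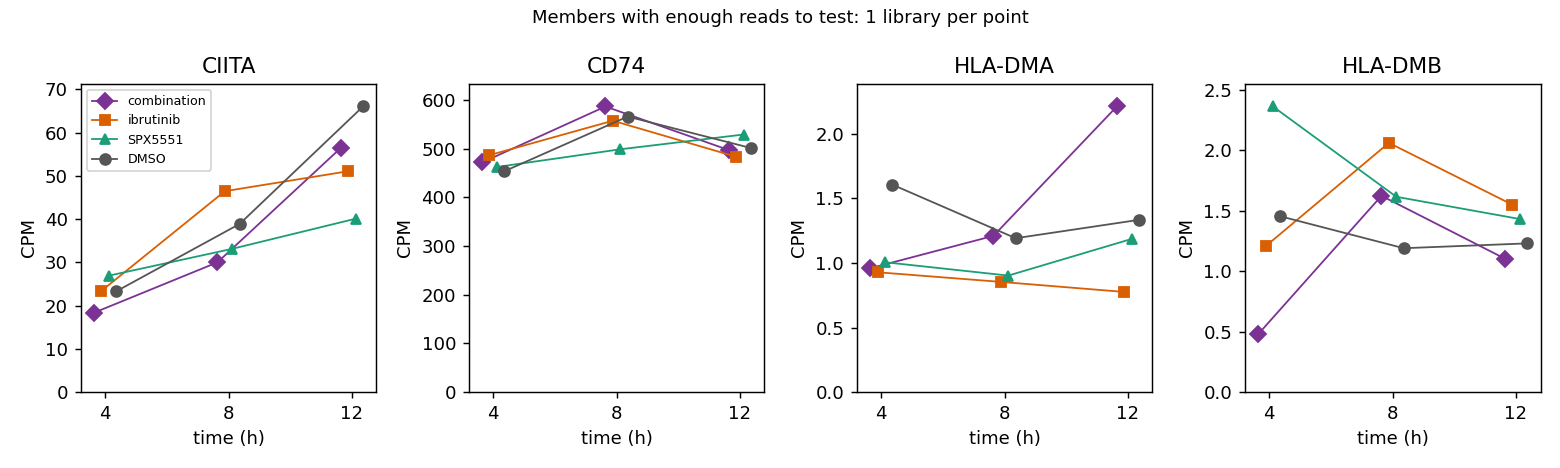
CPM on a linear axis at 4, 8 and 12 h for CIITA, CD74, HLA-DMA and HLA-DMB, 1 library per point, with points of a treatment joined and shifted slightly sideways to keep them apart. The CIITA values rise with time in each treatment, to 40.1 to 66.1 CPM at 12 h, whereas CD74 stays between 453 and 586 CPM.

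The log2 fold change of CIITA was 0.65 ± 0.13 at 8 h versus 4 h (SE, n = 4 libraries each; adjusted p = 0.00227, edgeR) and 1.12 ± 0.13 at 12 h versus 4 h (adjusted p = 3.2e-05), the second a 2.18-fold difference. At 12 h versus 8 h it was 0.48 ± 0.13 (adjusted p = 0.0356). Rises were common at these times: of the 14412 genes tested, 26.6% were called at 8 h versus 4 h (13.1% higher), 35.9% at 12 h versus 4 h (18.4% higher) and 9.08% at 12 h versus 8 h (4.41% higher and 4.66% lower). The calls against 4 h held in all 22 alternatives, but that at 12 h versus 8 h was lost in 10 of 22, where adjusted p reached 0.208. Of those 10, 8 left out 1 library: that of the combination or DMSO at any of the 3 times, of ibrutinib at 12 h or of SPX5551 at 8 h, with values from 0.35 to 0.55. The rise was also present in DMSO cells, which received neither agent.

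**Figure D4:**
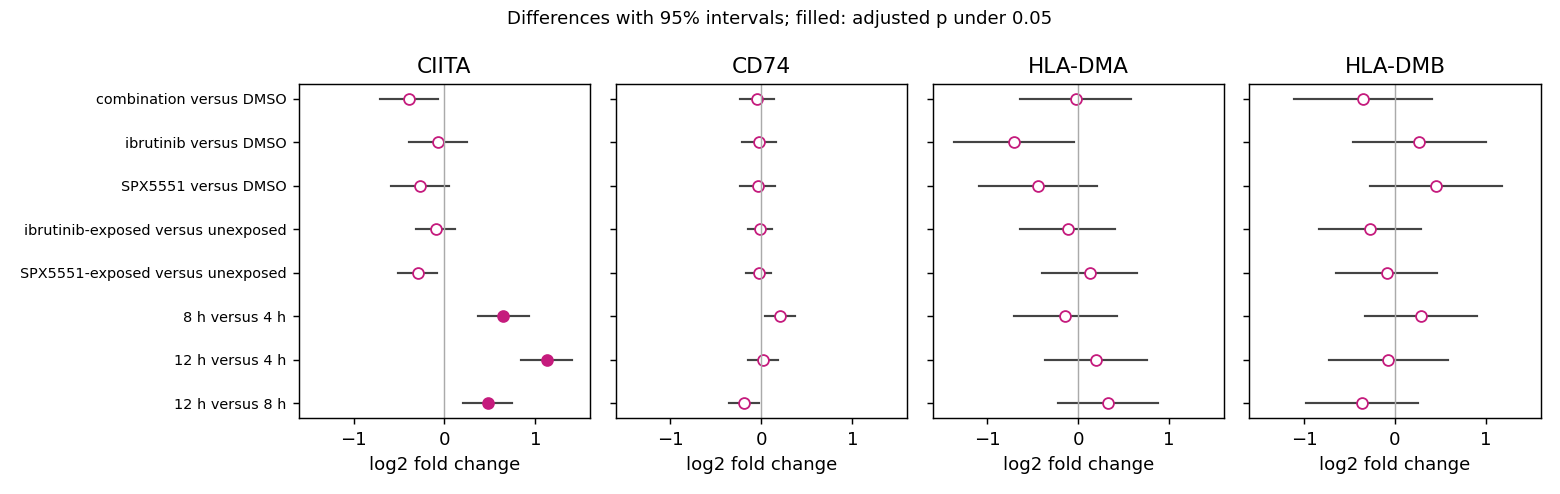
Log2 fold changes (points) with 95% intervals (lines) of CIITA, CD74, HLA-DMA and HLA-DMB in 8 comparisons, filled where adjusted p is under 0.05. CIITA at 8 h versus 4 h, 12 h versus 4 h and 12 h versus 8 h are the filled points.

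Differences of CIITA between treatments were smaller than those between times. CIITA was lower in combination cells than in DMSO cells at each of the 3 times, and the log2 fold change was -0.39 ± 0.15, with a 95% interval from -0.71 to -0.07 (SE, n = 3 times; adjusted p = 0.117, edgeR). It missed the threshold in a comparison in which 9.57% of genes were called, 4.16% higher and 5.41% lower. With the transcript length trend removed it was -0.41 (adjusted p = 0.0304), without the pair set aside -0.41 (adjusted p = 0.00416), and fitted on these 6 libraries alone -0.40 (adjusted p = 0.0028). Without the time term it was -0.38 (adjusted p = 0.788), and adjusted p over the alternatives ranged from 0.0028 to 0.788. With the columns that the descriptions name it was 0.12 (adjusted p = 0.634, edgeR), which is the header-based difference from SPX5551 with the sign turned. CIITA transcripts lie at the 76.2th percentile of length among the genes tested.

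Against DMSO, CIITA differed by -0.07 ± 0.15 in ibrutinib cells and by -0.27 ± 0.15 in SPX5551 cells on the log2 scale (adjusted p = 0.871 and 0.633, edgeR; 0.104% and 0% of genes called). For SPX5551 versus DMSO 1200 genes had an unadjusted p under 0.05, and DESeq2 and limma also called 0. With libraries left out, SPX5551 versus DMSO ranged from -0.49 without the 4 h SPX5551 library to -0.04 without all 12 h libraries, and dropping the 12 h library of SPX5551 or DMSO gave -0.09 or -0.15, dropping the pair set aside -0.07. Time by time, SPX5551 minus DMSO came to 0.15 (4 h), -0.26 (8 h) and -0.69 (12 h). The combination differed from ibrutinib by -0.32 ± 0.15 (adjusted p = 0.207; 5.49% of genes called, 2.1% higher and 3.39% lower) and from SPX5551 by -0.12 ± 0.15 (adjusted p = 0.634; 7.24% called, 3.27% higher and 3.97% lower). The difference from ibrutinib was -0.16 when the 8 h ibrutinib library was dropped, -0.50 when the 12 h combination library was, and -0.53, then passing (adjusted p = 0.0151), when all 12 h libraries were. Over all SPX5551-exposed libraries CIITA averaged 34.2 ± 13.1 CPM, against 41.6 ± 16.6 CPM in the unexposed (SD, n = 6 each). That difference was -0.29 ± 0.10 on the log2 scale (adjusted p = 0.0807, edgeR; 7.01% called, 2.12% higher and 4.89% lower), and -0.10 without the pair set aside (adjusted p = 0.615). It passed with no filter on low counts, at -0.30 (adjusted p = 0.00832), and without the 4 h SPX5551 library, at -0.40 (adjusted p = 0.0109).

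Ibrutinib-exposed libraries averaged 37.7 ± 15.8 CPM of CIITA, against 38.1 ± 15.2 CPM in the unexposed (SD, n = 6 each), a log2 difference of -0.09 ± 0.10 (adjusted p = 0.547, edgeR; 13.7% called, 7.14% higher and 6.58% lower). It was -0.31 (adjusted p = 0.0323) without the pair set aside. The interaction of both agents was -0.05 ± 0.21 (adjusted p = 0.999), and ibrutinib exposure by time did not pass for any of the 4 tested members (unadjusted p = 0.0435 for HLA-DMB and 0.344 for CIITA; 0% of genes called, 252 at an unadjusted p under 0.05, with 2 called by DESeq2 and 0 by limma). In bulk libraries, fewer cells with a transcript and less of it per cell cannot be told apart. DEXI, on the opposite strand, covers 17.7% of the CIITA gene and fell by 0.42 ± 0.13 at 12 h versus 4 h (adjusted p = 0.0233), while CIITA rose. An antisense gene, ENSG00000262151, covers 29.3% of CIITA, and ENSG00000280153, on the same strand, covers 3.1%. Reads of the opposite-strand overlaps cannot be told apart without the strand setting. How reads shared on the same strand were counted is not given.

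Transcripts of the 8 proteins through which CIITA reaches DNA were all detected. Of these 8, 0 passed with ibrutinib exposure, SPX5551 exposure or the combination versus DMSO, where 13.7%, 7.01% and 9.57% of all genes were called. With ibrutinib exposure the smallest p-values belonged to RFXANK, an RFX subunit, and CREB1. RFXANK had 59.2, 81.6 and 64.3 CPM in combination cells at 4, 8 and 12 h, 54.8, 56.6 and 55.3 CPM in ibrutinib cells, 62.9, 71.8 and 70.3 CPM in SPX5551 cells, and 53.5, 79.9 and 59.9 CPM in DMSO cells. At 12 h versus 4 h, 1 of the 8 rose and 3 fell, where 35.9% of all genes were called (18.4% higher, 17.5% lower). The riser, picked like the 3 that fell with its values in view, was RFX5, the DNA-binding RFX subunit. It had 71.7, 85.9 and 124 CPM in combination cells, 78.1, 94.5 and 115 CPM in ibrutinib cells, 85.6, 80.6 and 105 CPM in SPX5551 cells, and 73.3, 77.4 and 122 CPM in DMSO cells. Its log2 fold change was 0.51 ± 0.08 (SE, n = 4 libraries each; adjusted p = 0.000344, edgeR). NFYA fell by 0.41 ± 0.09, ATF1 by 0.33 ± 0.07 and NFYB by 0.26 ± 0.08, the last no longer called with library size scaling alone (adjusted p = 0.119). The median of the 8 genes was -0.14, against 0.00 over all genes tested.

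A list of 15 possible transcription regulators of CIITA in B cells was chosen with earlier results of these data known, and all 15 were tested. It includes repressors such as PRDM1, so counts of rises and falls give no direction for CIITA. Of the 15, 9 rose and 2 fell at 12 h versus 4 h, where 18.4% of all genes were called higher and 17.5% lower. Their median was 0.44 on the log2 scale, against 0.00 over all genes. In the same comparison 4 of 7 B-cell markers rose, with a median of 0.44, and 3 of 5 tested stromal and epithelial markers, with a median of 0.28, and their part in these counts was not tested. For the combination versus DMSO 0 rose, 6 fell and 9 did not pass (4.16% of all genes higher, 5.41% lower), with a median of -0.32, against 0.02 over all genes. With library size scaling alone, 3 of those 6 lost their call: EBF1, BCL6 and IKZF1, named with their values in view. With ibrutinib exposure 3 fell and 12 did not pass (6.58% of all genes lower), and with SPX5551 exposure 6 fell and 9 did not pass (4.89% lower). For ibrutinib or SPX5551 versus DMSO 0 of the 15 passed, where 0.104% and 0% of all genes were called. Without the pair set aside, an alternative added after seeing the data, these counts were 9 higher at 12 h versus 4 h, 8 lower for the combination, 4 lower with ibrutinib exposure and 2 lower with SPX5551 exposure. These counts stand beside CIITA as description, and their part in its level was not tested.

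The 3 that fell with ibrutinib exposure were IRF4, MYC and IKZF3. IRF4, a factor of activated B cells and plasma cells, had 93.3, 59.5 and 67.4 CPM in combination cells at 4, 8 and 12 h, 122, 79.1 and 78.7 CPM in ibrutinib cells, 132, 80.5 and 93.2 CPM in SPX5551 cells, and 174, 84.1 and 115 CPM in DMSO cells. Its log2 difference was -0.48 ± 0.07 with ibrutinib exposure (n = 6 libraries each; adjusted p = 0.000692, edgeR) and -0.81 ± 0.10 for the combination versus DMSO (adjusted p = 0.000173). IRF4 also fell at 12 h versus 4 h, by 0.64 ± 0.08, the opposite direction to CIITA. MYC, the growth-promoting factor, had 64.5, 138 and 134 CPM in combination cells, 111, 204 and 189 CPM in ibrutinib cells, 165, 197 and 207 CPM in SPX5551 cells, and 196, 207 and 225 CPM in DMSO cells. It fell by 0.64 ± 0.12 with ibrutinib exposure (adjusted p = 0.00476) and by 1.06 ± 0.15 in the combination versus DMSO (adjusted p = 0.000741). The columns that the descriptions name exchange the ibrutinib-exposed and unexposed libraries, so the sign of a difference turns by that exchange alone. The values were then 0.48 for IRF4 and 0.64 for MYC (adjusted p = 0.0433 and 0.0461, edgeR), which is no separate result about these genes.

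IKZF3 (Aiolos), a lymphoid zinc finger factor, fell by 0.30 ± 0.08 with ibrutinib exposure (adjusted p = 0.0268, edgeR), a call lost with library size scaling alone (adjusted p = 0.0535), and by 0.63 ± 0.10 in the combination versus DMSO (adjusted p = 0.00189). The 9 that rose at 12 h versus 4 h included, picked with their values in view, the myeloid and B-cell factor SPI1 (PU.1), by 0.66 ± 0.08 on the log2 scale, its partner IRF8, by 0.63 ± 0.07, and the interferon-induced factor IRF1, by 0.91 ± 0.12 (SE, n = 4 libraries each; adjusted p = 2.5e-05, 3.3e-05 and 5.1e-05, edgeR). SPI1 had 40.2, 79.1 and 75.6 CPM in combination cells at 4, 8 and 12 h and 38.2, 63.5 and 60.8 CPM in DMSO cells. PRDM1 (BLIMP1), which represses CIITA in plasma cells and was chosen after its values were seen, stayed between 1.73 and 4.30 CPM and did not pass in these comparisons.

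**Figure D5:**
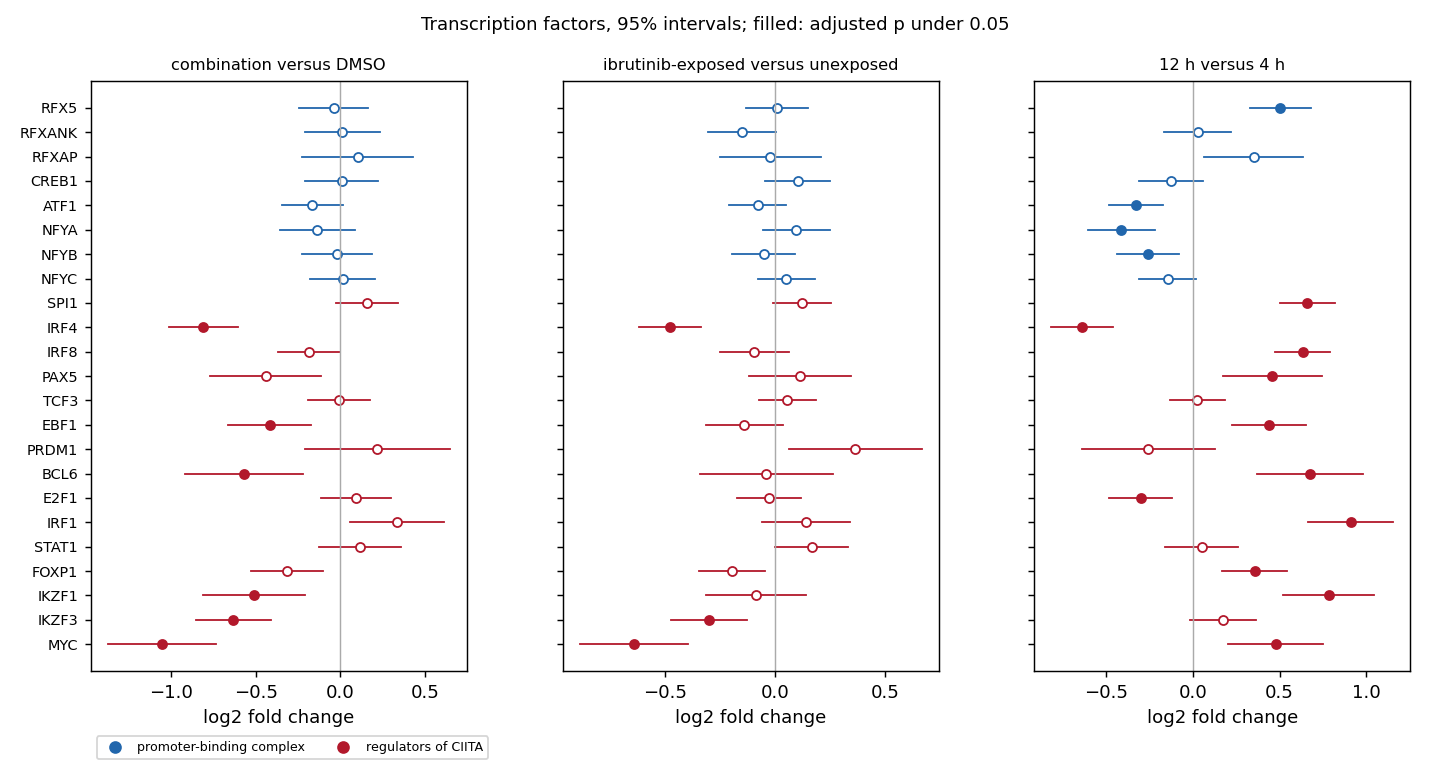
Log2 fold changes (points) with 95% intervals (lines) for the 8 promoter-binding proteins and the 15 listed possible regulators of CIITA. Panels show the combination versus DMSO, ibrutinib-exposed versus unexposed libraries and 12 h versus 4 h, with points filled where adjusted p is under 0.05. IRF4 is lower in all 3 panels, whereas MYC is lower in the first 2 and higher at 12 h versus 4 h.

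Of 13 cofactors that work with or against CIITA, 4 rose with ibrutinib exposure, against 7.14% of all genes: the acetyltransferases EP300, CREBBP and KAT2B and the coactivator NCOA1, by 0.51 ± 0.13, 0.43 ± 0.12, 0.33 ± 0.10 and 0.30 ± 0.10 on the log2 scale (SE, n = 6 libraries each; adjusted p = 0.0213, 0.0274, 0.0384 and 0.0452, edgeR). EP300 had 119, 95.7 and 163 CPM in combination cells at 4, 8 and 12 h, 132, 209 and 158 CPM in ibrutinib cells, 88.1, 87.1 and 67.5 CPM in SPX5551 cells, and 89.3, 104 and 163 CPM in DMSO cells. The pair set aside held its extremes, and without it 0 of the 4 passed, at values of 0.19, 0.17, 0.16 and 0.10. The list's median was 0.09, against 0.02 over all genes.

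Of 11 tested genes for peptide supply and invariant chain processing, 0 passed with ibrutinib exposure, where 13.7% of all genes were called. The smallest p-values were those of the proteases CTSC and CTSD. In the combination versus DMSO, CTSD rose by 0.48 ± 0.09 and CTSC fell by 0.29 ± 0.08 (n = 3 times; adjusted p = 0.00561 and 0.0382, edgeR). The CTSC call was lost with library size scaling alone (adjusted p = 0.0987). CTSS (cathepsin S), which makes the last cuts in CD74 in B cells and is named after its values were seen, lay between 89.5 and 127 CPM.

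Of 15 tested genes for class II turnover and traffic, 3 rose and 3 fell with ibrutinib exposure, where 7.14% of all genes were called higher and 6.58% lower. The median was 0.02, the same as over all genes. CD83, which protects surface class II from ubiquitination by the ligase MARCHF1, had 127, 67.6 and 44.8 CPM in combination cells at 4, 8 and 12 h, 138, 63.9 and 61.7 CPM in ibrutinib cells, 278, 144 and 209 CPM in SPX5551 cells, and 411, 121 and 186 CPM in DMSO cells. It was lower in each ibrutinib-exposed library than in any unexposed library of the same time. Its log2 difference with ibrutinib exposure was -1.48 ± 0.13 (SE, n = 6 libraries each; adjusted p = 4.3e-06, edgeR), and it also fell over time, by 1.12 ± 0.17 at 12 h versus 4 h (adjusted p = 0.000182). With the columns that the descriptions name, the CD83 difference with ibrutinib exposure was 1.48 (adjusted p = 0.00018, edgeR). The opposite sign follows from the exchange of exposed and unexposed libraries, as for IRF4 and MYC.

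MARCHF8, a ligase related to MARCHF1, rose by 0.32 ± 0.08 with ibrutinib exposure (adjusted p = 0.0174, edgeR), and its call was lost with the length trend removed, at 0.19 (adjusted p = 0.0584). MYO1E, a myosin linked to class II transport in dendritic cells, fell by 0.37 ± 0.09 (adjusted p = 0.0156), and CD63, a tetraspanin of endosomes, by 0.36 ± 0.09 (adjusted p = 0.0202). Without the pair set aside CD63 was at -0.20 (adjusted p = 0.0961). MARCHF1, the ligase that CD83 opposes, chosen after its values were seen, lay between 0.305 and 2.02 CPM.

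Genes next to the members served as a local comparison. Of 18 tested non-class II genes of the class II region, 1 rose and 3 fell with ibrutinib exposure, against 7.14% and 6.58% of all genes: ZBTB22 rose by 0.40 ± 0.09 on the log2 scale, and WDR46, PFDN6 and RGL2 fell by 0.28 ± 0.07, 0.25 ± 0.08 and 0.24 ± 0.08 (adjusted p = 0.0124, 0.0188, 0.0477 and 0.0479, edgeR). None of the 3 falls passed without the pair set aside. Of 5 tested neighbours of CIITA, 0 passed with ibrutinib exposure (13.7% of all genes called), where TXNDC11 and CLEC16A had the smallest p-values. At 12 h versus 4 h, 2 rose and 2 fell, against 18.4% and 17.5% of all genes, and SNN, NUBP1 and DEXI are named after their values were seen. CLEC16A rose by 0.38 ± 0.10 and SNN by 0.67 ± 0.08, while NUBP1 fell by 0.38 ± 0.09 and DEXI fell as given above.

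Across the 12 libraries, the genes most like CIITA among 10111 with a mean of at least 2 on the log2 CPM scale were NCBP1 (r = 0.98), PPP1R16B (0.973), MAP1B (0.972), MBP (0.966) and SP140 (0.965), by Pearson's r of log2 CPM. Among those most like CD74 were SART1 (0.927), ERAL1 (0.925), P4HB (0.916) and PSMD3 (0.914). These r describe 12 libraries that share times, treatments and the length trend, and carry no test. Of the promoter-binding proteins, RFX5 had r = 0.88 with CIITA and RFXANK r = 0.69 with CD74. CIITA and CD74 had r = 0.08 with each other.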

How the data were processed

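Poly(A)-selected RNA of REC1 cells was sequenced from directional libraries, per the labels' protocols. BWA and hg38 are named per the submitters' processing notes; the counting tool, annotation and strand setting were not given there. The authors deposited raw counts per Ensembl gene and log2 CPM values for 14767 genes, whose normalization is not stated. Columns were assigned to treatment and time by header, since titles and descriptions disagree. The 10 members and all gene lists were chosen with earlier results of these data known.

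Positions and names came from GENCODE release 29 on hg38, in which 93.8% of identifiers had a symbol, with promoters from RefSeq. Counts were analysed in R 4.3.3 with edgeR 4.0.16: genes were kept by filterByExpr (14412 genes, holding 99.9% of counts), scaled by TMM and tested by the quasi-likelihood F-test with treatment and time as additive terms, and Benjamini-Hochberg adjustment over all genes tested at 0.05. Exposure models had time, ibrutinib and SPX5551 exposure as terms. The common biological coefficient of variation was 0.101. Intervals cover 95% and follow from the test. CPM per kb used the median length of annotated basic transcripts. The code was tested on simulated data.

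Every member is named. Of each other list, up to 4 genes with the smallest p among those passing with ibrutinib exposure are named, or 2 where none passed, and further names are marked as chosen after their values were seen. Alternatives were other scaling, no filter, DESeq2 1.42.0, limma-trend (limma 3.58.1) on the deposited log2 CPM, other model terms, removal of a trend with transcript length, the columns named in the descriptions, and leaving out libraries or times. Labels give no replicate numbers, and time stands in the model as the block. The 5 genes most like CIITA and CD74 were sought by Pearson's r, and 1 of those for CD74 is not reported here.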

Additional observations from a re-analysis of the deposited data

Results flagged for a closer look

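The 4 tested genes were examined for a library far from the rest of its group in 28 groupings by time and by exposure, of which chance alone marks about 1 in 20. In 4 of them a library of HLA-DM stood apart. HLA-DMA had 1.61 CPM in the 4 h DMSO library, against 0.928 to 1.01 CPM in the other 4 h libraries. HLA-DMA had 2.21 CPM in the 12 h combination library, the highest among the 6 ibrutinib-exposed and also among the 6 SPX5551-exposed libraries, where the next value was 1.21 CPM. HLA-DMB had 2.36 CPM in the 4 h SPX5551 library, against at most 1.62 CPM in the other 5 ibrutinib-unexposed libraries. These values rest on 32, 54 and 47 counts. CIITA and CD74 had no library of this kind.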

How the results depend on the processing

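The rise of CIITA at 12 h versus 4 h kept its call in all 22 alternatives, between 0.99 and 1.29 on the log2 scale, as did that at 8 h versus 4 h, between 0.50 and 0.82. At 12 h versus 8 h CIITA was 0.47 and not called without a treatment term (adjusted p = 0.165, edgeR) and 0.47 on the compared libraries alone (adjusted p = 0.0628), and 0.35 to 0.60 with single libraries left out. It lost its call without the 12 h library of the combination (0.35), DMSO (0.39) or ibrutinib (0.55), the 8 h library of the combination (0.42), DMSO (0.44) or SPX5551 (0.44), or the 4 h library of the combination or DMSO (0.47 each). With no filter on low counts 8 members were tested, and otherwise 4. The number of tested members passing for the combination versus DMSO was 0. It became 1 with no filter, with the compared groups alone, with the length trend removed and without the pair set aside. With libraries left out it was 0 to 1. It became 1 for the combination versus SPX5551 (HLA-DMB) and for SPX5551 exposure (CIITA) with no filter, and for ibrutinib exposure without the pair set aside, with 0 to 1 for the combination versus ibrutinib and SPX5551 exposure with libraries left out. At 8 h versus 4 h it was 1, and became 2 with library size scaling, no filter, DESeq2, the compared groups alone or without the pair set aside, and 1 to 2 with libraries left out. At 12 h versus 8 h it was 1, and became 0 without a treatment term or with the compared groups alone, 2 without the pair set aside, and 0 to 2 with libraries left out.

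With the columns named in the descriptions, CIITA came to 0.12 for the combination, 0.39 for ibrutinib and 0.32 for SPX5551 versus DMSO. These follow from the exchange of treatments. By header they are the combination versus SPX5551, DMSO and ibrutinib with the sign turned (-0.12, -0.39 and -0.32). CIITA was then 0.099 for ibrutinib exposure, against -0.09 by header with the exposed and unexposed libraries exchanged, and 0.032 for SPX5551 exposure. With those columns CD74 was 0.0090 for the combination versus DMSO and 0.018 for ibrutinib exposure, by the same exchange. With library size scaling CD74 was 0.032 and 0.033 in these 2 comparisons, and for ibrutinib exposure 0.056 with the length trend removed and 0.014 without the pair set aside. With libraries left out, CIITA ranged from -0.25 to 0.092 for ibrutinib versus DMSO, from -0.49 to -0.04 for SPX5551 versus DMSO, from -0.53 to -0.14 for the combination versus ibrutinib, from -0.39 to 0.098 for the combination versus SPX5551, from -0.19 to 0.010 for ibrutinib exposure and from -0.48 to 0.17 for the interaction, and CD74 from -0.08 to 0.037 for ibrutinib exposure. The sign reversed for ibrutinib versus DMSO without the 12 h library of DMSO (0.034) or ibrutinib (0.021), for the combination versus SPX5551 without the 4 h SPX5551 library (0.083), and for CD74 with ibrutinib exposure without the 12 h SPX5551 library (0.0018). The CIITA interaction reversed without the 4 h library of DMSO (0.0085), SPX5551 (0.17) or the combination (0.034), the 8 h library of ibrutinib (0.11) or the combination (0.022), and all 8 h libraries (0.12). The cause of the shifts other than those with the description columns was not tested.

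Time served as the replicate block. Without the block the CIITA interaction was 0.088, and 27 genes were called for the combination versus DMSO, against 1379 with it.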
